A study of Mus musculus with 48 samples.

Results

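The genes described here are Kiss1, Tac2, Pdyn, Esr1 and Pgr, 5 of the 21558 genes in the deposited RPKM table, taken by name for their place in the control of reproduction. RPKM is a read count scaled to transcript length and to the mapped reads of the library. The hypothalamus of male C57BL/6 mice was profiled in 48 RNA-seq libraries, each made from the pooled tissue of 3 mice. The libraries form 8 series of 6, and within a series each library carries a different number in its title (1, 5, 9, 13, 17 or 21); the labels give no unit for it, and where a daily course was fitted it was read as hours of a 24-hour period. The labels name no genotype, drug or transgene for any mouse, and the groups differ in posture, period, noise and air pressure. The study's design text gives the substrain C57BL/6N.

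Early mice were 2 months old and were kept at 10 dBA and normal pressure. Of these, 2 series (a and b, with the same labels) were free-moving and 2 series (a and b, also with the same labels) were under hind limb unloading, in which the hind limbs bear no weight and which serves on the ground as a model of weightlessness. Late mice were 3 months old by the sample labels, although the study's own design text gives 2 months for all mice. The 4 late series were free-moving or unloaded at 10 dBA and normal pressure (late quiet), and free-moving or unloaded at 85 dBA and 0.9 atm (late noise). Noise and low pressure always came together, as did period and age, so the parts of each pair cannot be told apart. Each late condition is 1 series, so a condition and its series cannot be told apart either, and p-values measure only the spread between pools of mice within and across title numbers.

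KNDy neurons of the arcuate nucleus are named for kisspeptin, neurokinin B and dynorphin, the peptides they release. Neurokinin B starts and dynorphin ends each burst of their activity, and the kisspeptin they secrete drives pulses of gonadotropin-releasing hormone (GnRH) and so of the gonadotropins. Sex steroids feed back on this circuit through the estrogen receptor alpha and, in many of the same cells, the progesterone receptor, whose gene is itself a classic target of estrogen. Kiss1 encodes kisspeptin, Tac2 the neurokinin B precursor, Pdyn the dynorphin precursor, Esr1 estrogen receptor alpha and Pgr the progesterone receptor. Tac2, Pdyn, Esr1 and Pgr are also expressed in hypothalamic cells outside the arcuate nucleus, and in bulk tissue fewer cells of a type and less RNA per cell cannot be told apart.

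The steps between low RPKM values gave an estimated depth of 28.4 to 55.2 M reads per library (median 38.1 M), with 62.7 to 68.5% of low values whole to within 0.02 reads where 4% would be by chance. The 13 mitochondrially encoded genes took 8.95% to 62.4% of the summed RPKM of a library. This share was 11.5% ± 1.68 (SD, n = 6) for free-moving and 14.0% ± 1.32 (SD, n = 6) for unloaded mice in the late quiet series, and between 20.5% and 44.5% on average in the other 6. All 8 hypothalamus markers checked were above 0 in every library, with sums of 317 to 1043 RPKM. Markers of regions outside the hypothalamus varied as well. The 6 striatum markers summed to 29.2 to 234 RPKM within the early free-moving series a. Of 4 medial habenula markers tested, 3 were higher and 1 lower in late against early free-moving mice, where 60.5% and 18% of all genes were. The part of such tissue in the members' levels was not tested. One library stood apart: number 9 of the early unloaded series a held 12140 RPKM of 7 anterior pituitary transcripts, against at most 29.1 RPKM in the other 7 series, so the members' and the gene lists' results on early unloading are also given without it.

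The promoter windows of Tac2, Esr1 and Pgr are shown because these 3 members differed between series. They run from 250 bases before to 50 bases after a RefSeq start on GRCm38.p6, 5′ to 3′ on the plus strand, and capitals mark matches on either strand to 6 motifs searched in every window.
Tac2, chr10:127724228-127724527: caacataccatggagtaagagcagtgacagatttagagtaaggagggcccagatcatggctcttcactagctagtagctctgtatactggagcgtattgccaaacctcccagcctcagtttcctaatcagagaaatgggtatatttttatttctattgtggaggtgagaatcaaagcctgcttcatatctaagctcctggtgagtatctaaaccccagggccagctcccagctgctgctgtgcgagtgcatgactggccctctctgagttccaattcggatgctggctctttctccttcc
Esr1, chr10:4611739-4612038: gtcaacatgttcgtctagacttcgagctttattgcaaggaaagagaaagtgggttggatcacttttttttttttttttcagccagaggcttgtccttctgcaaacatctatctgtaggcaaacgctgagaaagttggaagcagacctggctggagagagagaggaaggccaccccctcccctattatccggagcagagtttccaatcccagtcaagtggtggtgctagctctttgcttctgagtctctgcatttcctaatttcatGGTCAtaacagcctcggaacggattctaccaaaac
Pgr, chr9:8899583-8899882: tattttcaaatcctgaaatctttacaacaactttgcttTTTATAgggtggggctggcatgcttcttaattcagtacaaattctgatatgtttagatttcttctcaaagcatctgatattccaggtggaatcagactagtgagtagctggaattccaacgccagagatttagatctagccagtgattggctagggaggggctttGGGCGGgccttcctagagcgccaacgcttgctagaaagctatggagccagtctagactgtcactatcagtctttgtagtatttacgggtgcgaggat
The motifs were GGTCA, which is each arm of the estrogen response element, the full element (GGTCA and its reverse complement TGACC with 3 bases between them), TGTTCT, a core bound by the progesterone receptor, the SP1 box GGGCGG, the TATA box TATAAA and the cyclic AMP response core TGACG. Among all 32851 RefSeq windows of this length, GGTCA was found in 40.5%, the full element in 0.07%, TGTTCT in 19%, GGGCGG in 35.7%, TATAAA in 13.6% and TGACG in 20.8%. RefSeq gives Esr1 another start, with a window at chr10:4709908-4710207, which is not shown. The Tac2 window held none of the 6, the Esr1 window shown held 1 GGTCA, and the Pgr window held 1 SP1 box and 1 TATA box. GC content was 48.3% for Tac2, 46.3% for Esr1 and 43.7% for Pgr in the windows shown, below the median of 52.7% over all windows. The other Esr1 window held none of the 6 motifs and had a GC content of 59.3%, above that median. These matches describe the letters of these windows only.

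Of the 5 genes, 4 passed the filter of a mean of at least 0.5 RPKM and were tested among 13685 genes. Differences are given as log2 of (RPKM + 0.5) with their standard error, and adjusted p-values are from limma with Benjamini-Hochberg adjustment over all 13685 genes at a threshold of 0.05. Over the 4 genes and 11 comparisons between series, 12 of 44 differences passed. Whether a gene differed between any of the 8 series was called for Tac2 (adjusted p = 0.00077), Esr1 (adjusted p = 0.0061) and Pgr (adjusted p = 1.0e-08) but not for Pdyn (adjusted p = 0.33), 3 of 4 genes where 83.9% of all genes were called. Esr1 lost this call with the mitochondrial share as a covariate (adjusted p = 0.63) and after quantile normalization (adjusted p = 0.0501), and Tac2 lost it with trends on gene length and GC content removed (adjusted p = 0.32). Pdyn gained it without title number 1 (adjusted p = 0.0075), with array weights (adjusted p = 0.00018) and with the covariate (adjusted p = 0.046).

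**Figure D1:**
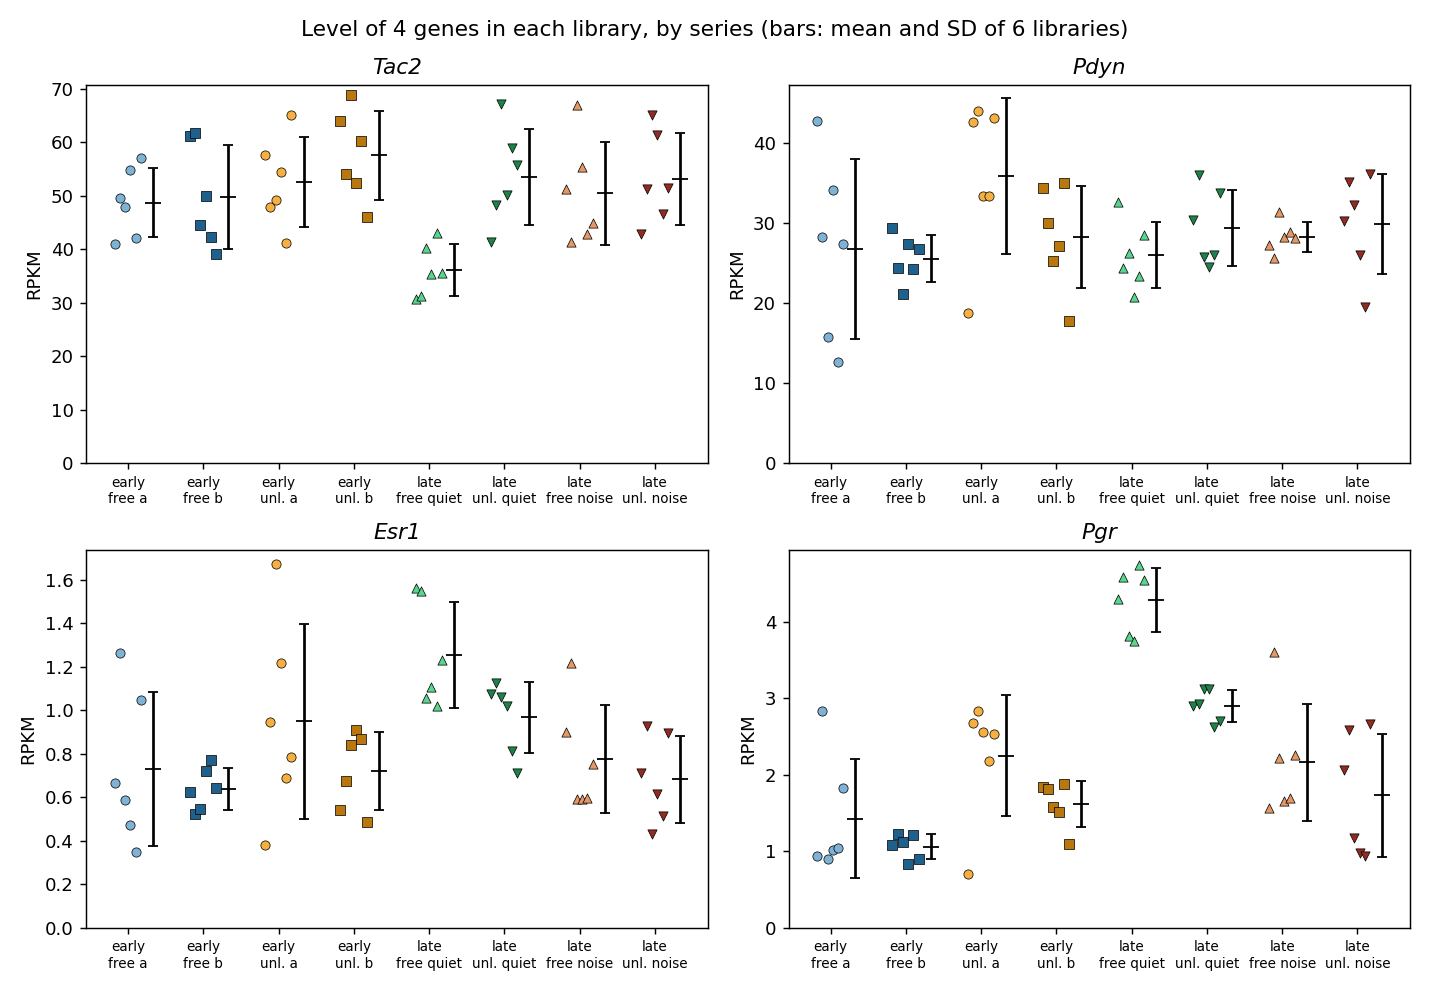
RPKM of Tac2, Pdyn, Esr1 and Pgr in each of the 48 libraries (points, in order of title number within a series), with the mean and SD of the 6 libraries of each series (bars). The late quiet free-moving series has the lowest mean of Tac2 (36.01 RPKM) and the highest means of Esr1 (1.25 RPKM) and Pgr (4.28 RPKM).

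How many members were called is given for each comparison beside the share of all genes called. With late unloading in quiet, 1 of 4 members was called (Tac2) against 12.8% of all genes. With early unloading 1 of 4 was called (Pgr) against 52.8%. Noise with low pressure gave 3 of 4 in free-moving mice (Tac2, Esr1 and Pgr) against 57.6%, and 1 of 4 in unloaded mice (Pgr) against 52.3%. Late against early gave 3 of 4 in free-moving mice (Tac2, Esr1 and Pgr) against 78.5%, and 1 of 4 in unloaded mice (Pgr) against 47.3%. Late unloading under noise gave 0 of 4 members against 0.0146% of genes, and the lowest unadjusted p of a member there was 0.13.

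The difference between the late and the early effect of unloading was called for 2 of 4 members (Tac2 and Pgr) against 33.5% of genes. The difference between the effects of unloading with and without noise was called for 0 of 4 members against 4.38%, with Tac2 at an unadjusted p of 0.011 and an adjusted p of 0.11. The early series that share their labels show how far 2 series differ with no labelled difference. No late condition has a second series, so this was not measured for the late ones. Series b against series a gave 0 of 4 members both in early free-moving mice, against 0.256% of genes, and in early unloaded mice, against 0.833% of genes, and no member had an unadjusted p under 0.05 in either. The late quiet free-moving series enters late unloading in quiet, noise in free-moving mice, late against early in free-moving mice and both differences of effects, so a high or low level in its 6 libraries is seen in each of them.

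**Figure D2:**
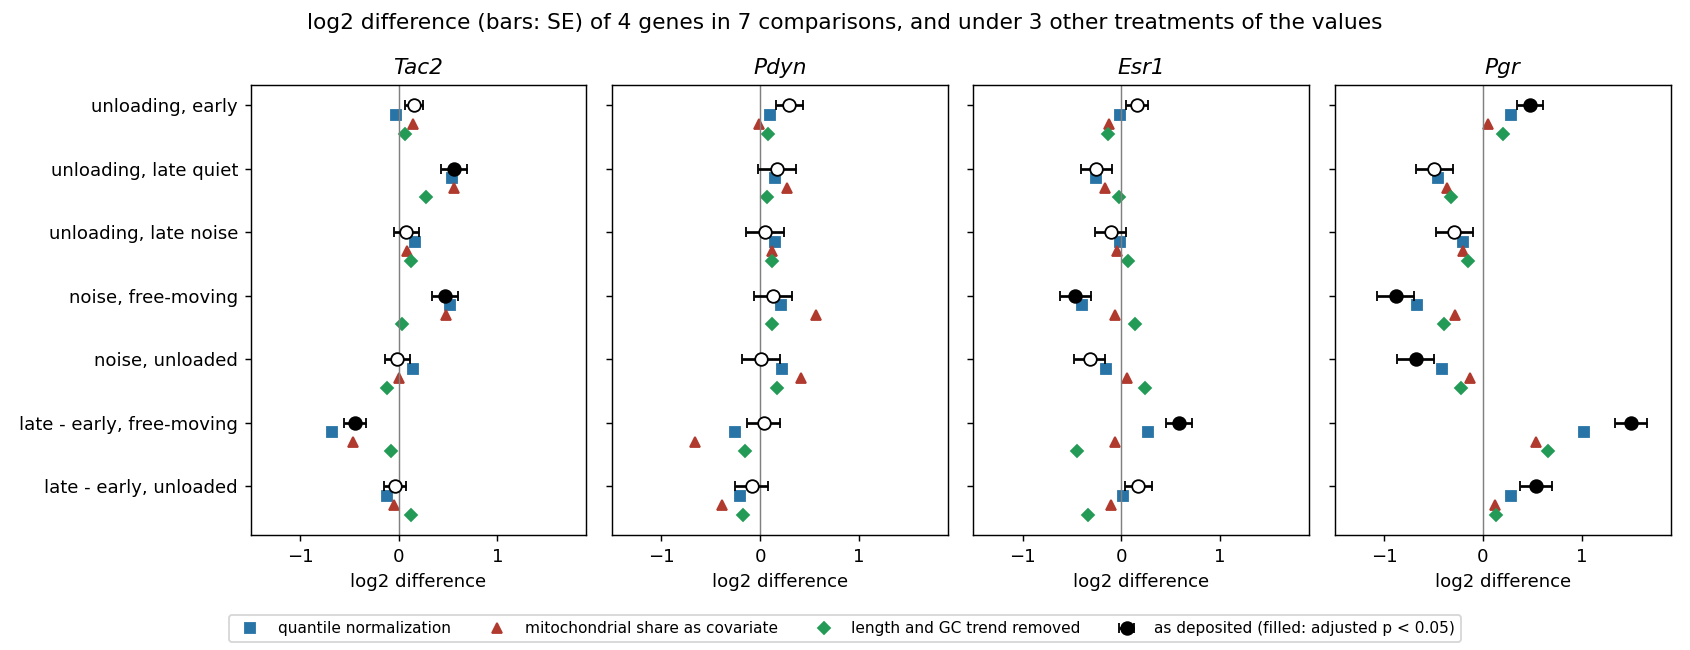
log2 difference of Tac2, Pdyn, Esr1 and Pgr in 7 comparisons (circles, bars show the SE, filled where the adjusted p is under 0.05) and the value under quantile normalization, with a covariate for the mitochondrial share, and with the trends on gene length and GC content removed. The largest difference is Pgr in late against early free-moving mice (1.503), and the Esr1 difference there changes sign between treatments of the values.

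Kiss1 transcripts were at the limit of what the table holds. Kiss1 (ENSMUSG00000116158.1; GRCm38 chr1:133321875-133329901, plus strand) was listed at 0 in 46 of 48 libraries. It was listed at 0.0861 RPKM in number 1 of the late quiet unloaded series and at 0.362 RPKM in number 13 of the late noise free-moving series, which at the estimated depths and the annotated exon length are about 2.77 and 11.1 reads. A count of 3 reads would give between 0.0698 and 0.136 RPKM depending on the library. A gene named Gm28040 (ENSMUSG00000098306.9) covers all 779 exonic bases of Kiss1 on the same strand in the GENCODE M21 annotation, and Gm28040 was listed at 0 in all 48 libraries. How the authors counted reads shared by both genes is not given in the sources used here, so a listed 0 is no measure of kisspeptin expression, and no comparison was made for Kiss1. None of the other 4 genes shares exonic bases with another annotated gene.

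Tac2 transcripts were lower in the late quiet free-moving series than in the other series, and higher where the late mice were unloaded or exposed to noise. Tac2 (ENSMUSG00000025400.11; chr10:127724478-127731768, plus strand, 1.38 kb of exons) rests on about 1431 to 4462 reads per library. Late quiet free-moving mice had 30.7, 35.4 and 43.1 RPKM (lowest, median and highest of 6 libraries), and late quiet unloaded mice had 41.4, 52.9 and 67.0 RPKM. The groups overlap through 1 library each: 5 of 6 unloaded libraries lie above all free-moving ones. The difference was 0.56 ± 0.13 (SE), or 1.47-fold, with an adjusted p of 0.0034, and Tac2 was higher at 6 of 6 title numbers. All genes together had a median difference of 0.02 in this comparison, and 97.9% of genes had a lower value than Tac2.

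With noise and low pressure Tac2 also stood above the late quiet free-moving level. The late noise free-moving series had 41.4 to 66.8 RPKM (mean 50.4 ± 9.65 (SD, n = 6)), of which 4 of 6 libraries lie above all quiet ones. The difference was 0.47 ± 0.13 (SE; limma adjusted p = 0.0021), higher at 5 of 6 title numbers and 0.62 above the median of all genes. In mice that were already unloaded, noise left Tac2 at 42.7, 51.4 and 65.0 RPKM, and the difference of -0.01 ± 0.13 (SE; limma adjusted p = 0.94) was smaller than its error.

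Early free-moving mice had 39.1, 48.7 and 61.7 RPKM of Tac2 over 12 libraries. The late quiet free-moving series fell by 0.44 on the log2 scale from them (SE 0.11; limma adjusted p = 0.00048), lower at 5 of 6 title numbers, while all genes together rose by a median of 0.43. Unloaded mice did not show a difference between periods beyond error (-0.04 ± 0.11 (SE); limma adjusted p = 0.78), with 41.1, 54.2 and 68.8 RPKM early and 41.4 to 67.0 RPKM late. Early unloading moved Tac2 by 0.16 ± 0.09 (SE; limma adjusted p = 0.13), below the median of 0.23 over all genes, and by 0.19 (adjusted p = 0.092) without the library rich in pituitary transcripts.

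The late effect of unloading on Tac2 exceeded the early one by 0.40 ± 0.16 (SE; limma adjusted p = 0.046), but this call was lost in 11 of 16 alternatives. It was lost without each of the title numbers 5, 9, 13, 17 and 21 (adjusted p from 0.067 to 0.14) and without number 9 of the early unloaded series a (adjusted p = 0.068). The 3 called differences between single conditions kept their direction under all alternatives. Their calls ended where trends on gene length and GC content were removed from each library, to 0.27 (adjusted p = 0.089) for late unloading, 0.03 (adjusted p = 0.82) for noise and -0.08 (adjusted p = 0.49) for late against early. In these 3 comparisons genes with under 2 kb of exons, as Tac2 has, moved by medians of 0.25, 0.38 and -0.28, and genes with over 8 kb by -0.15, -0.48 and 0.88.

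No difference of Pdyn between conditions passed the test on the values as deposited. Pdyn (ENSMUSG00000027400.11; chr2:129686565-129699844, minus strand, 2.89 kb of exons) had series means from 25.5 ± 2.93 (SD, n = 6) RPKM in the early free-moving series b to 35.9 ± 9.71 (SD, n = 6) RPKM in the early unloaded series a. Each step between neighbouring means is smaller than the larger of their SDs, and all series overlap. Early unloading gave the largest difference among conditions, with 12.6, 27.1 and 42.7 RPKM in free-moving and 17.7, 33.4 and 44.0 RPKM in unloaded libraries. This difference of 0.30 ± 0.14 (SE) had a limma adjusted p of 0.065 and was higher at 4 of 6 title numbers. It passed without number 1 (0.45, adjusted p = 0.0040), without number 21 (0.35, adjusted p = 0.048) or without number 1 of the early free-moving series a alone (0.37, adjusted p = 0.022), and was -0.01 with the mitochondrial share as a covariate. It also passed with array weights (0.20, adjusted p = 0.028) and for series a against series a (0.48, adjusted p = 0.046), and was 0.25 (adjusted p = 0.13) without number 9 of the early unloaded series a. With the mitochondrial covariate 2 further differences of Pdyn were called, noise in free-moving mice (0.56, adjusted p = 0.013) and late against early in free-moving mice (-0.66, adjusted p = 0.010), where the values as deposited gave 0.13 (adjusted p = 0.58) and 0.04 (adjusted p = 0.84). Array weights brought late against early in unloaded mice past the threshold (-0.25, adjusted p = 0.0069).

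Within series Pdyn spread unevenly. Its coefficient of variation was 42.0% in the early free-moving series a and 6.79% in the late noise free-moving series, whose 6 libraries run from 25.6 to 31.4 RPKM. Series accounted for 16.0% of the variance of Pdyn on the log2 scale, against 44.1% for Tac2, 37.1% for Esr1 and 67.3% for Pgr. The lowest Pdyn libraries were number 17 and number 9 of the early free-moving series a (12.6 and 15.7 RPKM), in which the mitochondrial share was 62.4% and 54.4%. Series b of the early unloaded mice was below series a once number 1 was left out (-0.56, limma adjusted p = 0.020), although their labels are the same. In that setting 39.2% of all genes were called between these 2 series.

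Esr1 transcripts were highest on average in late quiet free-moving mice and fell with noise in free-moving mice. Esr1 (ENSMUSG00000019768.16; chr10:4611593-5005614, plus strand, 13.7 kb of exons) was a low transcript, from 0.348 to 1.67 RPKM over the 48 libraries, which at its length are about 156 to 919 reads. Late quiet free-moving mice had 1.02, 1.17 and 1.56 RPKM, early free-moving mice 0.348, 0.633 and 1.26 RPKM. Of the 12 early libraries, 2 reach the lowest late one. The difference was 0.58 ± 0.14 (SE; limma adjusted p = 0.00019), higher at 6 of 6 title numbers, and 0.16 above the median of all genes.

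Under noise and low pressure free-moving mice had 0.594, 0.675 and 1.22 RPKM of Esr1, and 5 of these 6 libraries lie below all late quiet ones. Esr1 fell by 0.47 on the log2 scale (SE 0.16; limma adjusted p = 0.010), lower at 6 of 6 title numbers. In unloaded mice, with 0.430, 0.663 and 0.926 RPKM under noise and 0.713, 1.04 and 1.12 RPKM in quiet, the difference of -0.32 ± 0.16 (SE) had an adjusted p of 0.080 and passed only without number 21 (-0.43, adjusted p = 0.037). The differences of Esr1 with unloading were larger than their SE but missed the threshold, both early (0.16 ± 0.11 (SE); adjusted p = 0.21) and late in quiet (-0.25 ± 0.16 (SE); adjusted p = 0.29). Without number 9 of the early unloaded series a the early value was 0.09 (adjusted p = 0.50). Array weights brought both past the threshold (0.35, adjusted p = 0.00030, and -0.26, adjusted p = 0.014), as did a fit of the compared series alone for the late one (adjusted p = 0.040). The late quiet effect less the early one was -0.41 ± 0.19 (SE; limma adjusted p = 0.088), lower at 6 of 6 title numbers, and was called only with array weights (-0.61, adjusted p = 3.3e-05).

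The direction of Esr1 depended on how the values were treated. With the mitochondrial share as a covariate its difference between late and early free-moving mice was -0.07 (adjusted p = 0.75), and with the trends on length and GC content removed it was -0.45 (adjusted p = 3.2e-05). Noise in free-moving mice gave -0.07 (adjusted p = 0.71) with the covariate and 0.14 (adjusted p = 0.25) with the trends removed. Late against early in unloaded mice, not called as deposited (0.17 ± 0.14 (SE); adjusted p = 0.30), became -0.34 (adjusted p = 0.0045) with the trends removed.

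Pgr transcripts separated the series most. Pgr (ENSMUSG00000031870.16; chr9:8899833-8968611, plus strand, 8.55 kb of exons) rests on about 191 to 1872 reads per library. The late quiet free-moving series had 3.75, 4.42 and 4.74 RPKM, and all 6 of its libraries lie above all 42 others, of which the highest had 3.61 RPKM. This pattern was shared by 10.1% of all genes tested. Ordered by mean, the series ran from 1.06 ± 0.17 (SD, n = 6) RPKM in the early free-moving series b to 2.90 ± 0.21 (SD, n = 6) RPKM in the late quiet unloaded series and 4.28 ± 0.42 (SD, n = 6) RPKM in their free-moving counterpart, and only this last step exceeds the SDs of both neighbours.

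Late against early was the largest difference of any member. Early free-moving mice had 0.828, 1.06 and 2.83 RPKM of Pgr over 12 libraries, none of which reaches the late quiet series. The difference was 1.503 ± 0.16 (SE), or 2.83-fold, with a limma adjusted p of 1.5e-10, higher at 6 of 6 title numbers and 1.08 above the median of all genes. A gene that is higher in late free-moving mice with no overlap was not rare, since 29.6% of genes had that pattern. The call held under all 18 alternatives, with values from 0.54 (adjusted p = 0.0022, mitochondrial share as a covariate) to 1.78, and stood at 0.66 with the trends on length and GC content removed.

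In unloaded mice the same step between periods was smaller. Early unloaded mice had 0.697, 1.85 and 2.84 RPKM and late quiet unloaded mice 2.62, 2.91 and 3.12 RPKM, so 4 of 6 late libraries lie above all early ones. The difference was 0.54 ± 0.16 (SE; limma adjusted p = 0.0081), higher at 6 of 6 title numbers. It was not called against series a alone (0.38, adjusted p = 0.20), with the mitochondrial share as a covariate (0.12, adjusted p = 0.41) or with the trends on length and GC content removed (0.13, adjusted p = 0.23).

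Unloading was tied to higher Pgr in early mice and to lower Pgr in late quiet mice. Early, the difference was 0.48 ± 0.13 (SE; limma adjusted p = 0.0063), higher at 6 of 6 title numbers, from the 0.828 to 2.83 RPKM of free-moving and the 0.697 to 2.84 RPKM of unloaded libraries, which overlap over nearly their whole range. It held without number 9 of the early unloaded series a (0.43, adjusted p = 0.015). It was lost without number 9 of all series (0.41, adjusted p = 0.070), without number 17 (0.44, adjusted p = 0.058) and for the early unloaded series b against series a or b of the free-moving mice (0.20 and 0.43, adjusted p = 0.63 and 0.32). When the mitochondrial share of each library was added as a covariate it was 0.05 (adjusted p = 0.98).

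Late in quiet, all 6 unloaded libraries (2.62 to 3.12 RPKM) lie below all 6 free-moving ones (3.75 to 4.74 RPKM). Groups that do not overlap, either way, were found for 24.6% of genes, of which 1773 genes were lower as Pgr was. The fitted difference of -0.49 ± 0.19 (SE) nevertheless missed the threshold, with a limma adjusted p of 0.073, where the fit takes its spread from all 8 series. The coefficient of variation of Pgr was 9.72% and 7.23% in these 2 series and 15.6% to 54.1% in the other 6. It was called when the fit held these series alone (adjusted p = 0.00039), with array weights (adjusted p = 1.3e-06), with quantile normalization (-0.45, adjusted p = 0.0091), with the mitochondrial share as a covariate (-0.36, adjusted p = 0.011) and with the trends on length and GC content removed (-0.33, adjusted p = 0.018). The late effect of unloading was lower than the early one by -0.97 ± 0.23 (SE; limma adjusted p = 0.0034), at 6 of 6 title numbers. With the mitochondrial share as a covariate this difference of effects was -0.42 (adjusted p = 0.051).

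Noise with low pressure went with less Pgr in both postures. Free-moving mice had 1.57, 1.95 and 3.61 RPKM under noise, all below the lowest quiet library, as 19.8% of genes were. Pgr fell by 0.88 on the log2 scale (SE 0.19; limma adjusted p = 0.00014), at 6 of 6 title numbers and 0.73 below the median of all genes. In unloaded mice the levels of 0.932, 1.62 and 2.66 RPKM under noise lie below all quiet libraries in 5 of 6 cases, and Pgr fell by 0.68 (SE 0.19; limma adjusted p = 0.0048). The call in unloaded mice was lost without number 13 (-0.56, adjusted p = 0.063), with the mitochondrial share as a covariate (-0.13, adjusted p = 0.61) and with the trends on length and GC content removed (-0.22, adjusted p = 0.076). In free-moving mice it was lost with the covariate alone (-0.29, adjusted p = 0.057). Unloading under noise itself gave -0.29 ± 0.19 (SE; limma adjusted p = 0.77), within the spread of libraries from 0.932 to 3.61 RPKM.

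**Figure D3:**
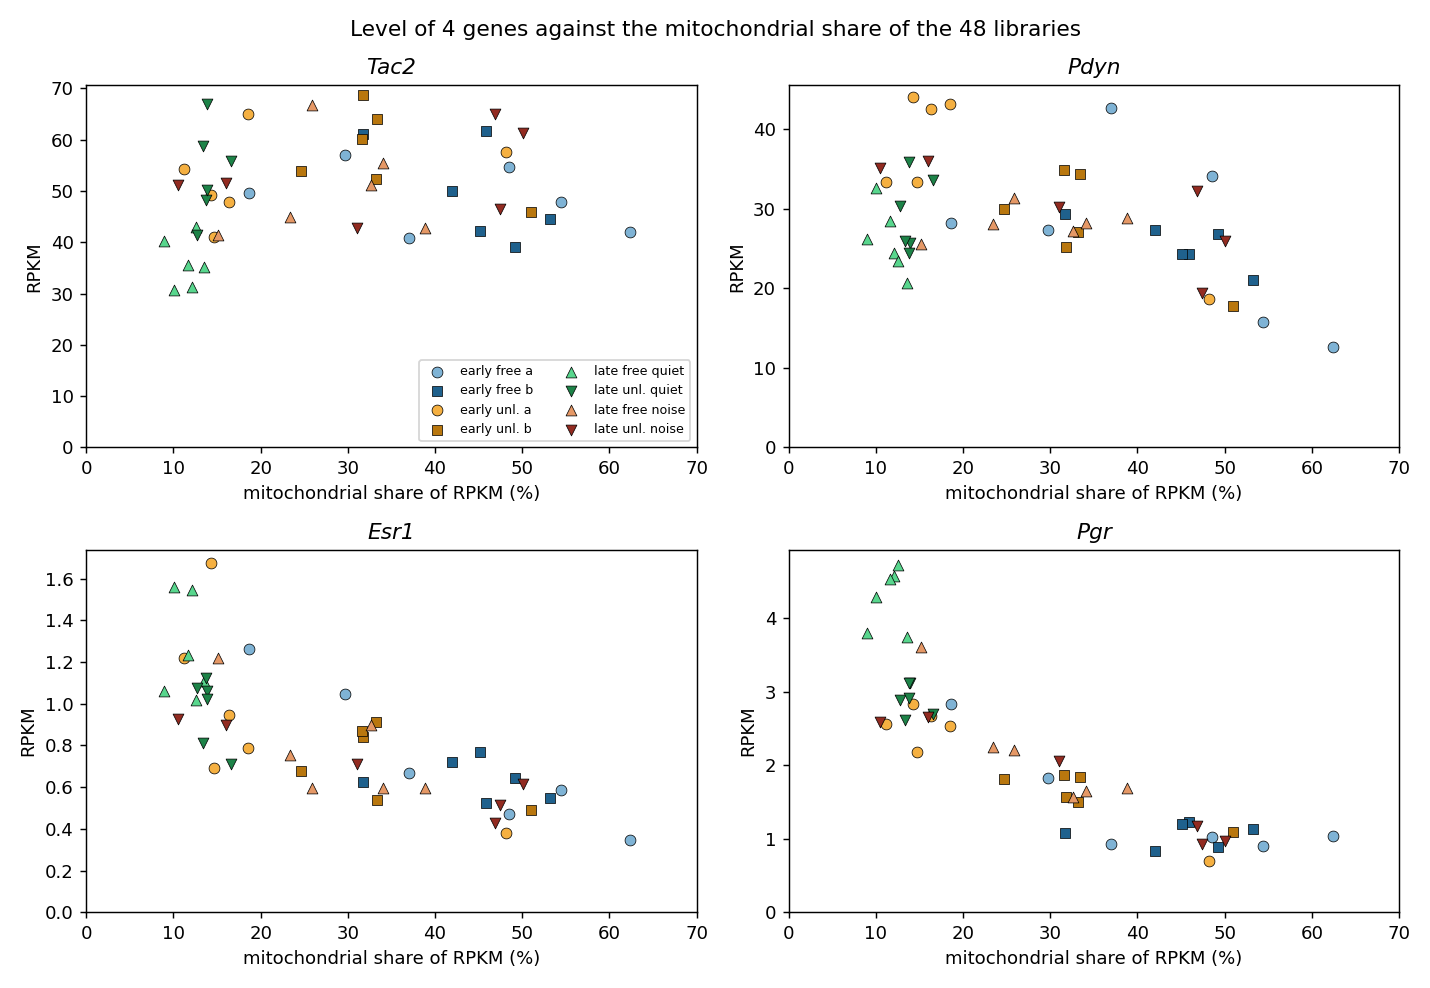
RPKM of Tac2, Pdyn, Esr1 and Pgr against the percentage of summed RPKM taken by 13 mitochondrially encoded genes, 1 point per library. The 12 late quiet libraries lie between 8.95% and 16.6%, and the library with the highest share (62.4%) has 1.04 RPKM of Pgr.

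The 2 steroid receptor genes followed the mitochondrial share of the libraries, and Tac2 did not. Over the 48 libraries, which share this measure through their RPKM scale, Pearson's r with the log odds of the share was -0.93 for Pgr, -0.82 for Esr1, -0.45 for Pdyn and 0.25 for Tac2. An r lower than that of Pgr was found for 11.2% of genes tested, and one lower than that of Esr1 for 39.4%. For Pdyn and Tac2 these shares were 66.7% and 86%, so an r as low as that of Esr1 was common among all genes. In the library of the early unloaded series a with the share of 48.2% (number 1), Pgr was at 0.697 RPKM where the other 5 libraries of that series, with 11.2% to 18.5%, had 2.18 to 2.84 RPKM. Its Tac2 level of 57.6 RPKM lies within the 41.1 to 65.1 RPKM of the others.

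**Figure D4:**
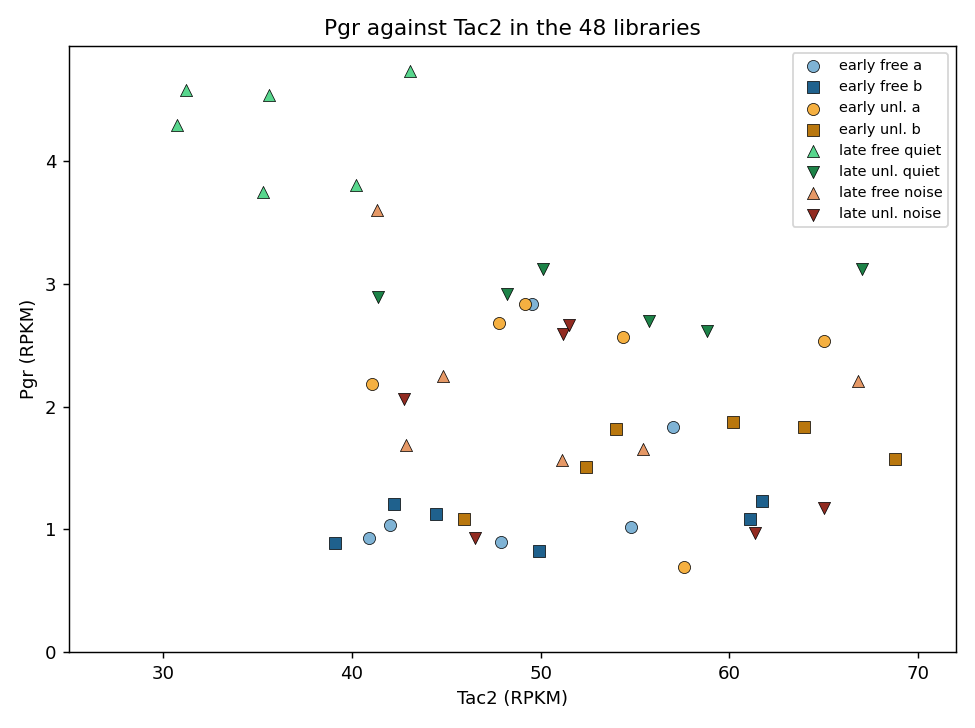
Pgr against Tac2 in RPKM, 1 point per library with the series by colour and shape. The 6 late quiet free-moving libraries lie apart at the upper left, with Tac2 between 30.7 and 43.1 RPKM and Pgr between 3.75 and 4.74 RPKM.

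Esr1 and Pgr rose and fell together across libraries, while Tac2 had a negative r with both. Pearson's r between Esr1 and Pgr was 0.81 over the 48 libraries, 0.72 after the means of the series were removed, and 0.25 after the mitochondrial share was regressed out of both. The ratio of Pgr to Esr1 in RPKM was 2.75 to 4.65 in the late quiet free-moving series. In early free-moving mice it was 1.40 to 2.99 in series a, which overlaps that range, and 1.15 to 2.35 in series b, which does not. The r of Tac2 with Pgr was -0.35 over all libraries, -0.04 within series and -0.65 after quantile normalization. With Esr1 it was -0.38, -0.18 and -0.56 on the same scales. The ratio of Pgr to Tac2 in the late quiet free-moving series (0.0947 to 0.147) lies above that of all other libraries, of which the highest had 0.0872. How many other pairs of genes separate this series was not counted. In late against early free-moving mice, genes with over 8 kb of exons, as Pgr has, moved by a median of 0.88. Genes with under 2 kb, as Tac2 has, moved by -0.28. Tac2 and Pdyn, the peptide pair, had an r of 0.18 as deposited and 0.34 with the mitochondrial share regressed out.

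The genes closest to each member over the 48 libraries differed. Pgr was most like Map1b (r = 0.98), which encodes a microtubule-associated protein, then Hspa4 and Dip2c (both r = 0.98), and Map1b and Hspa4 still led with the mitochondrial share regressed out (r = 0.84 and 0.83). Esr1 was most like AW551984, Gpr101, an orphan receptor, and Canx, the chaperone calnexin (r = 0.91 each), the same 3 with the share regressed out (r = 0.72, 0.70 and 0.69). Pdyn was most like Rxrg, retinoid X receptor gamma (r = 0.85), and this gene led on every scale tried (r = 0.81 with the share regressed out and 0.75 after quantile normalization). Tac2 had weaker partners, led by Cox8a (r = 0.76), a subunit of respiratory complex IV, and by Chchd10 with the share regressed out (r = 0.76). Libraries share their composition, so many genes reach such values.

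**Figure D5:**
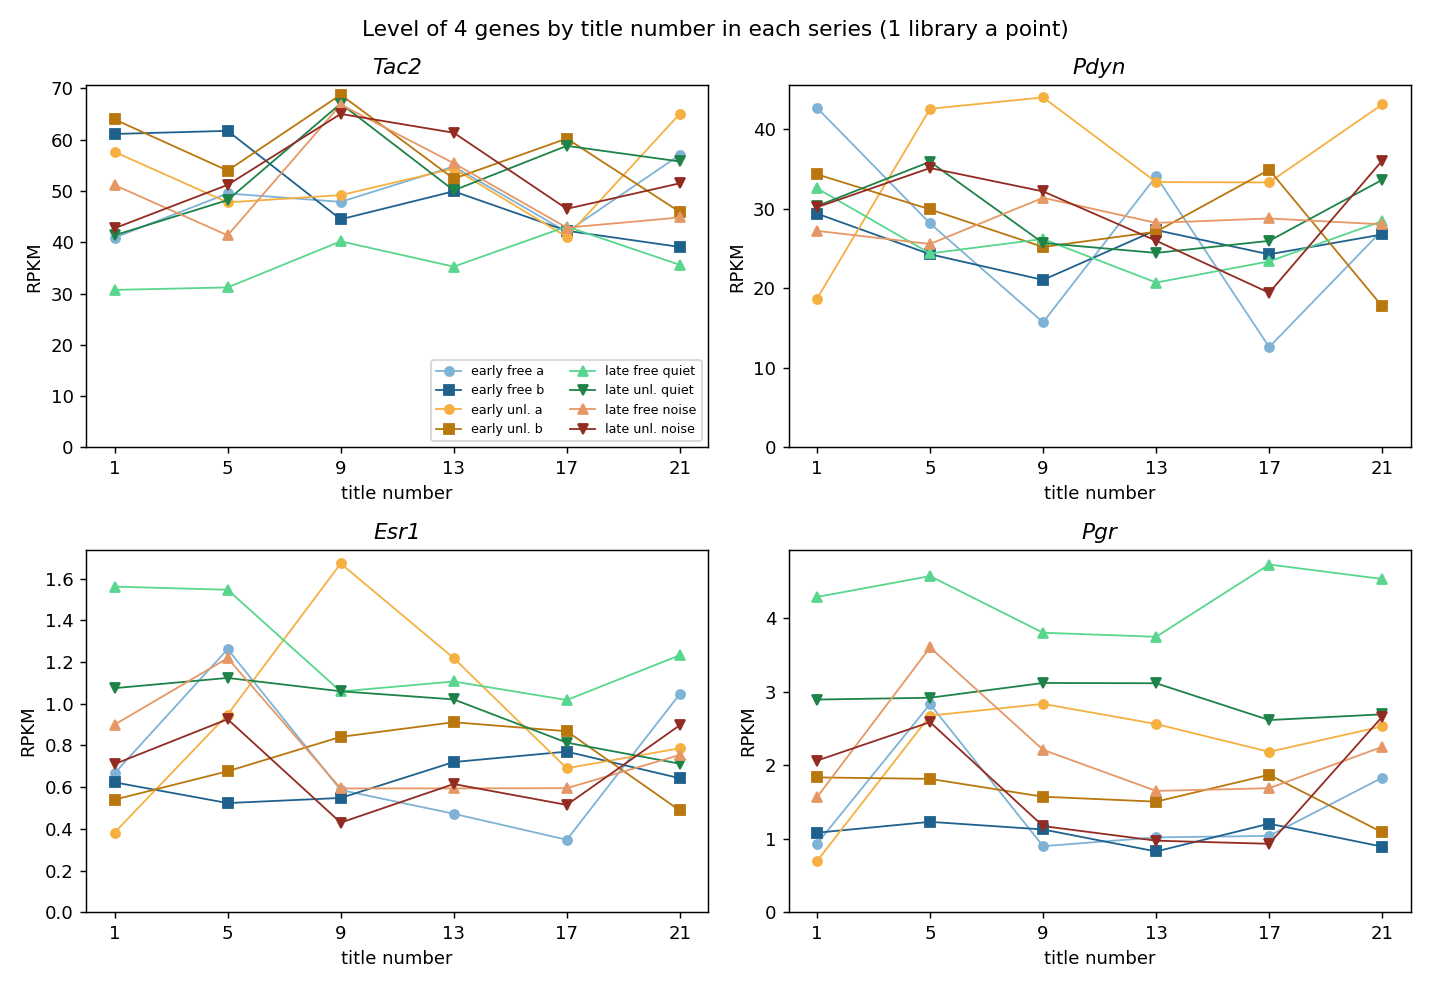
RPKM of Tac2, Pdyn, Esr1 and Pgr by title number, with 1 line per series and 1 library per point. The lines cross without a course common to the 8 series, and Pgr in the late quiet free-moving series stays above the other series at all 6 numbers.

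No member showed a daily course that passed the test. A cosine of period 24 fitted across all series gave adjusted p-values of 0.58 for Tac2, Pdyn and Esr1 and 0.62 for Pgr, and 0 of 4 members was called against 1.76% of all genes. The fitted amplitudes were 0.09 for Tac2, 0.13 for Pdyn, 0.10 for Esr1 and 0.12 for Pgr on the log2 scale, below their SDs within series of 0.23 to 0.37. Tac2 had its highest mean at number 9 (56.2 ± 11.8 RPKM (SD, n = 8)) and its lowest at number 17 (47.1 ± 7.83 RPKM (SD, n = 8)). Pgr was highest at number 5 (2.78 ± 1.02 RPKM (SD, n = 8)), and its course passed without number 1 (adjusted p = 0.046), the sole such case among 14 alternatives. A course that differs between series was called for 0 of 4 members against 0% of all genes. Esr1 had the lowest unadjusted p of the 4 in that test (0.0071, adjusted p = 0.41).

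The receptors of the 3 peptides and the transcript of GnRH were read against the share of all genes that moved the same way: in late against early free-moving mice 60.5% of genes were called higher and 18% lower. The list held Kiss1r, the kisspeptin receptor, Tacr3, the neurokinin B receptor, Oprk1, the kappa opioid receptor on which dynorphin acts, and Gnrh1, the GnRH precursor. Late quiet free-moving mice had 3.91, 4.86 and 5.42 RPKM of Tacr3 (lowest, median and highest), where early free-moving series a and b had medians of 1.73 and 0.983 RPKM. Gnrh1 was at 2.07, 3.19 and 5.17 RPKM in late quiet free-moving mice and had medians of 10.5 and 14.1 RPKM in the early ones. In late against early free-moving mice 3 of the 4 genes rose (Tacr3 by 1.51 ± 0.19 (SE), Oprk1 by 1.44 ± 0.22 and Kiss1r by 0.57 ± 0.13) and Gnrh1 fell by 1.76 (SE 0.21), with limma adjusted p-values of at most 0.00018. The median of the 4 was 1.004, against 0.43 over all genes.

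All 4 also differed with noise in free-moving mice, with Gnrh1 higher by 1.26 ± 0.24 (SE; limma adjusted p = 4.4e-05) and Tacr3, Oprk1 and Kiss1r lower by -0.81, -0.80 and -0.57, where 21.2% of all genes were called higher and 36.4% lower. This comparison shares its quiet series with the one above. In unloaded mice noise went with 1 higher (Gnrh1, 0.91 ± 0.24 (SE)) and 2 lower (Oprk1 and Tacr3, -0.95 and -0.73), where 6.75% of all genes were higher and 45.6% lower. Late against early in unloaded mice went with 2 higher (Oprk1 and Tacr3, 0.80 and 0.64) and 1 lower (Gnrh1, -0.82), where 38.8% of all genes were higher and 8.53% lower. With early unloading 3 of the 4 were higher, Tacr3 by 0.54 ± 0.15 (SE), Oprk1 by 0.51 ± 0.18 and Kiss1r by 0.33 ± 0.11, each with a limma adjusted p of at most 0.020, where 50.9% of all genes were called higher. Without number 9 of the early unloaded series a, 2 of the 4 were (Kiss1r and Tacr3). With late unloading 0 of the 4 were called in quiet and 0 under noise, against 12.8% and 0.0146% of all genes.

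Of 7 other steroid receptors listed, 6 were tested, since Esr2, estrogen receptor beta, stayed at 0.445 RPKM or below. In late against early free-moving mice 5 of 6 rose and none fell, among them Paqr8, a membrane progestin receptor (1.33 ± 0.13 (SE)), Pgrmc2 (0.68 ± 0.12) and Paqr7 (0.58 ± 0.12), with a median of 0.63 against 0.43 over all genes. Of all genes, 60.5% were called higher and 18% lower in that comparison. With noise 2 of 6 were lower in free-moving mice (among them Paqr8 at -1.05), where 36.4% of all genes were lower, and 5 of 6 in unloaded mice, where 45.6% were. With early unloading 3 of 6 were higher (Paqr8 by 0.46, Pgrmc2 by 0.35 and Paqr7 by 0.35), with and without number 9 of the early unloaded series a, near the 50.9% of all genes that were higher. With late unloading in quiet 1 of 6 was called, Paqr8 at -0.55 ± 0.15 (SE, limma adjusted p = 0.010), against 12.8% of all genes called and 3.38% called lower.

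Of 8 coregulators that work with nuclear steroid receptors, 7 were tested, and all 7 rose in late against early free-moving mice, led by the coactivators Ncoa1 (1.61 ± 0.15 (SE)) and Ncoa2 (1.49 ± 0.15) and the corepressors Ncor1 (1.15 ± 0.12) and Nrip1 (1.11 ± 0.13). Their median was 1.11, against 0.43 over all genes, of which 60.5% were called higher. With noise 5 of 7 were lower in free-moving and 6 of 7 in unloaded mice, with Ncoa1 at -1.22 and -0.65, where 36.4% and 45.6% of all genes were lower. With late unloading in quiet 2 of 7 were lower, where 3.38% of all genes were. These were Ncoa1 (-0.53 ± 0.17 (SE), limma adjusted p = 0.032) and Nrip1 (-0.52 ± 0.15, adjusted p = 0.017). With early unloading 5 of 7 were higher, led by Ncoa1 (0.43 ± 0.12), where 50.9% of all genes were. Without number 9 of the early unloaded series a 5 of 7 were higher too, where 41.7% of all genes were called either way.

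Of 6 enzymes and carriers of local steroid metabolism 4 were tested; Cyp19a1, the aromatase that makes estrogen from testosterone, stayed at 0.390 RPKM or below and was not tested. In late against early free-moving mice 3 of 4 rose (Hsd17b12 by 0.58, Star by 0.51 and Cyp7b1 by 0.37), with a median of 0.44, close to that of all genes, and a count near the 60.5% of all genes called higher. Of 11 regulators of puberty and of the KNDy genes 9 were tested and 8 rose in that comparison, led by Nhlh2 (1.00 ± 0.13 (SE)), Cux1 (0.65 ± 0.10), Eed (0.60 ± 0.10) and Sirt1 (0.80 ± 0.18), with a median of 0.60. Under late unloading in quiet 0 of the 4 and 0 of the 9 were called, against 12.8% of all genes. Of 9 steroid-responsive hypothalamic genes 4 rose in late against early free-moving mice, led by Prlr, the prolactin receptor (1.11 ± 0.13). Another 2 fell (Tac1 by 0.41 and Penk by 0.53), with a median of 0.21, where 60.5% of all genes were called higher and 18% lower.

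Markers of other arcuate neurons differed in the comparisons in which Tac2 was called, and also in some in which it was not. The 7 markers, all above 0 in every library, summed to 168 to 282 RPKM in the late quiet free-moving series, 199 to 311 RPKM in the late quiet unloaded series, 347 to 467 RPKM in the late noise free-moving series and 292 to 711 RPKM in the early free-moving series a. In late against early free-moving mice 5 of 7 fell, led by Agrp (-3.03 ± 0.28 (SE)), Npy (-2.04 ± 0.19) and Cartpt (-1.003 ± 0.11), peptides of feeding neurons, and 2 rose (Slc6a3 and Th, of dopamine neurons). There 18% of all genes were called lower and 60.5% higher. Under late unloading in quiet, where Tac2 rose, 2 of 7 rose as well and none fell, against 9.38% and 3.38% of all genes. These were Npy (0.93 ± 0.22 (SE), limma adjusted p = 0.0047) and Agrp (1.31 ± 0.32, adjusted p = 0.0057). With noise in free-moving mice 5 of 7 were higher, against 21.2% of all genes, and none lower. Where Tac2 was not called, noise in unloaded mice went with 4 of 7 higher, against 6.75% of all genes. Late against early in unloaded mice went with 5 of 7 lower and 1 higher, against 8.53% and 38.8%. Early unloading went with 1 higher and 2 lower, against 50.9% and 1.88%. Both counts of markers were the same without number 9 of the early unloaded series a. The part of these markers in the Tac2 differences was not tested. The 5 markers of the ventromedial nucleus, where Esr1 and Pgr are also expressed, were above 0 in every library and summed to 25.1 to 42.9 RPKM in late quiet free-moving mice and 17.4 to 35.5 RPKM in the early free-moving series a, with 3 of 5 higher and none lower between late and early free-moving mice, and their part in the receptor differences was not tested.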

How the data were processed

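Libraries were made from total RNA of 48 pools of 3 hypothalami. CASAVA 1.8 and HISAT are named in the submitters' processing notes; the sources used here do not give the genome build, annotation, counting or strand setting. The authors deposited RPKM values per gene, with 0 further sample columns; an RPKM is relative to all reads of its library, so a change in abundant transcripts moves all others. Members, gene lists and tests were chosen with earlier results of these data known. Genes with a mean of at least 0.5 RPKM were tested with limma 3.58.1 in R 4.3.3 on log2(RPKM + 0.5), in 1 fit of 48 libraries with terms for series and title number (35 residual df) and a variance trend on mean level. Such folds understate changes of low genes. The procedure was tested on simulated data. Members are named in all comparisons, and listed genes if called, up to 4 a list by smallest p. Annotation was GENCODE M21 on GRCm38; lengths may differ from the authors'. Figures and summaries used Python 3.11.15, pandas 2.3.3 and matplotlib 3.10.9. Removing trends on length and GC content (13535 genes with both) was added after the data were seen. One gene of the list of other steroid receptors is counted in it but not reported here.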

Additional observations from a re-analysis of the deposited data

Results flagged for a closer look

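Of 32 sets of 6 libraries (Tac2, Pdyn, Esr1 and Pgr in 8 series), 2 had 1 library far from the others, with a gap to its nearest neighbour, as a share of the range, above Dixon's critical value; chance flags about 1 in 20 such sets. Pgr stood low in number 1 of the early unloaded series a (0.697 RPKM, next 2.18 RPKM), where the mitochondrial share was 48.2% against 11.2% to 18.5% in the other 5. Pgr stood high in number 5 of the late noise free-moving series (3.61 RPKM, next 2.25 RPKM), where the share was 15.1%, the lowest of that series. Kiss1 was listed at 0.0861 RPKM in number 1 of the late quiet unloaded series and at 0.362 RPKM in number 13 of the late noise free-moving series, each beside 5 libraries listed at 0. Beside 5 zeros any value above 0 stands apart, so the chance rate does not apply to Kiss1.

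The effect of unloading differed between late quiet and early mice for 2 genes, by the limma test of the difference itself. The difference of effects was -0.97 for Pgr (adjusted p = 0.0034), from -0.49 late and 0.48 early. The late effect was not called by itself (adjusted p = 0.073). Over 16 alternatives the adjusted p of the difference ran from 1.5e-11 to 0.051, and 15 kept the call. For Tac2 it was 0.40 (adjusted p = 0.046), from 0.56 late and 0.16 early. The early effect was not called by itself (adjusted p = 0.13). Over 16 alternatives the adjusted p of the difference ran from 0.0012 to 0.25, and 5 kept the call.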

How the results depend on the processing

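Of 736 values of a member under an alternative, 678 kept their direction or stayed below the threshold, 28 lost and 24 gained a call, and 6 reversed. Within the 678, 51 changed sign with neither value called. The reversals were Esr1 in late against early free-moving mice with the mitochondrial share as a covariate (-0.0666) and with length and GC trends removed (-0.45), Esr1 with those trends removed in late against early unloaded mice (-0.34) and in noise in free-moving mice (0.14), Pdyn in late against early free-moving mice with the covariate (-0.66), and Pdyn between the early free-moving series with array weights (-0.45). Members called moved as follows, of 4. With array weights they were 1 and 2 between early free-moving and early unloaded series of the same labels (0 and 0 as reported), 3 in early unloading (1), 2 in late against early unloaded mice (1), 3 in late unloading in quiet (1) and 2 in unloading by noise (0), where 26.7%, 57.3%, 78.3%, 68.8%, 53.6% and 45.9% of all genes were called in turn. With the covariate they were 0 in early unloading, in late against early unloaded mice, in noise in unloaded mice and in unloading by period (2 as reported), and 2 in late unloading in quiet, where 0.00731%, 17.1%, 0%, 12.9% and 29.6% of all genes were called. With length and GC trends removed they were 1 in noise in free-moving mice (3), 0 in noise in unloaded mice (1) and 1 in unloading by period, where 59.7%, 35.1% and 33.3% of all genes were called. Quantile normalization gave 2 in late unloading in quiet (28.6% of all genes), and no filter gave 1 in unloading by period (21.3%). Fits of the compared series alone gave 3 in late unloading in quiet (51.9%), 1 in unloading by noise (10.9%) and 1 in unloading by period (34.2%). Pairs of early series gave 2 (unloaded a against free-moving a), 0 (b against a) and 0 (b against b) in early unloading, where 42%, 0% and 0.0219% of all genes were called. Series a alone gave 0 in late against early unloaded mice, against 0.723% of all genes. Other alternatives left out each title number in turn, or 1 of the libraries apart. In early unloading they gave 0 to 2 members called, where 0% to 64.7% of all genes were. Between the early unloaded series they gave 0 to 2 (0% to 39.2% of all genes). Noise in unloaded mice had 0 to 2 (9.36% to 56.4%), unloading by period 1 to 2 (13.3% to 39.6%) and the daily course 0 to 1 (0.599% to 5.98%). The cause of these changes was not tested.

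Without the replicate block on title number, 1 member was called in unloading by period, where 28.5% of all genes were. Tac2 stayed at 0.40 there (limma adjusted p = 0.055), and no other call changed. The labels do not say that a number marks shared mice or batches, and r between deviations from series means was as low as -0.525 in pairs of libraries with the same number (median 0.08 over 168 pairs, -0.02 over 840 others), so the numbers were not taken as a pairing given by the design. The main fit still holds a term for title number, and the counts of title numbers that were higher or lower match libraries across series by that number. As a hint from the data and not the design, 21 of 48 libraries correlated best with their own number, where 8 would if the 6 numbers were equally likely.

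Counts of called genes also moved over 1.5 times in comparisons behind the percentages. Early unloading (7227 genes) ranged from 0 without number 17 to 10718 with array weights, late unloading in quiet (1745) from 619 to 7329, noise in unloaded mice (7162) from 0 with the covariate to 7725, late against early unloaded mice (6479) from 99 against series a alone to 9419, and late against early free-moving mice (10743) from 6198 to 11761. Unloading by period (4589) ranged from 1771 to 9545, unloading by noise (600) from 59 to 6288, late unloading with noise (2) from 1 to 1764, the daily course (241) from 82 to 1180, its difference between series (0; 1641 at an unadjusted p under 0.05) from 0 to 530, and a difference between any series (11486) from 7138 to 13285. Between the series of the same labels 35 (free-moving) and 114 (unloaded) genes ranged from 0 to 3658 and from 0 to 7843.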
